A study of Mus musculus with 8 samples.

Results

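Retinoic acid is made, bound and degraded by the products of a small set of genes, and 9 of them were followed here in adipose-derived stem cells, the stromal cells of white fat from which new fat cells can arise. They are Rbp4, Stra6, Aldh1a1, Aldh1a2, Aldh1a3, Crabp1, Crabp2, Rarb and Cyp26b1, chosen by symbol from the 17967 gene symbols of the deposited count table, and all 9 were found. Transcripts were read by sequencing the bulk RNA of cells that had been labelled with antibodies and isolated from digested white fat. All groups share the same background, namely male C57BL/6J wild type mice on a chow diet. They differ in the depot, which was subcutaneous (SWAT, 2 libraries), epididymal (EWAT, 2 libraries) or perirenal (NWAT, 2 libraries). Mesenteric fat is not analysed here. The sources used here do not give the age of the mice, the antigens used for isolation, or whether a library came from 1 mouse or a pool. All p-values therefore set a depot difference only against the spread between libraries of the same depot, and that spread may be technical. It was estimated over all depots together, with help from other genes.

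Retinol travels in blood bound to retinol-binding protein, the product of Rbp4, and enters some cells through the receptor Stra6. Inside the cell it is oxidised reversibly to retinaldehyde and then irreversibly to retinoic acid by the retinaldehyde dehydrogenases Aldh1a1, Aldh1a2 and Aldh1a3. Retinoic acid is carried by the cellular binding proteins Crabp1 and Crabp2, acts through nuclear receptors such as Rarb, and is cleared by cytochrome P450 enzymes of the Cyp26 family. In fat, retinoids are known to act on adipocyte differentiation, and fat cells release Rbp4 into blood.

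The receptor gene Rarb is a textbook target of the pathway it serves, through a retinoic acid response element just upstream of one of its start sites. This element is a direct repeat of a 6-base half-site with a spacer of 5 bases, known as DR5. The 250 bases before the annotated start sites were searched on both strands for DR5 and for the related repeat with a spacer of 2 bases (DR2). The half-sites AGGTCA and AGTTCA were also searched. In both repeats the half-site was [AG]G[GT]TCA, where brackets hold the bases allowed, and the spacer could hold any bases. Start sites are from RefSeq on GRCm38.p6, where 7 of the 9 genes had an entry and 12 start sites were listed. The sequences below belong to Rarb, which held a match, and to Aldh1a2 and Cyp26b1, the genes whose levels differed most between depots. They run 5′ to 3′ along the gene's strand and end at the base before the start site, and capitals mark the DR5 match.
Rarb: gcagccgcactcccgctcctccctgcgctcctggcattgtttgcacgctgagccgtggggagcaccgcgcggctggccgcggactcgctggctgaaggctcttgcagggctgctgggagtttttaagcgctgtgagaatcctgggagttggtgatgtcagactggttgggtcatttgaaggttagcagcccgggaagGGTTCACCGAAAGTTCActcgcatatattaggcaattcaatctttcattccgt
Aldh1a2: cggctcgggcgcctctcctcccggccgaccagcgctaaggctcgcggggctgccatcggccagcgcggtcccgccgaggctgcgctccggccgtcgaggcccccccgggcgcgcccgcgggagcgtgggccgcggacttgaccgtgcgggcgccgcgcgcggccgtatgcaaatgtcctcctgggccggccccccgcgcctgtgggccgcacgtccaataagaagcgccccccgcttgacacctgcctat
Cyp26b1: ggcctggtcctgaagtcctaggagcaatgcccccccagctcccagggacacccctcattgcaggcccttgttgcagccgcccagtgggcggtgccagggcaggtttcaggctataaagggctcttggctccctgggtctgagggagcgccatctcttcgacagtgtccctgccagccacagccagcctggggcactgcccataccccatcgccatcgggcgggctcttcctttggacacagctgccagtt
The Rarb window is chr14:16575477-16575726 on the minus strand, that of Aldh1a2 is chr9:71215539-71215788 on the plus strand and that of Cyp26b1 is chr6:84593811-84594060 on the minus strand. The match in Rarb, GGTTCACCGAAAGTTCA, spans positions -53 to -37 from the start site, and its second repeat is itself the half-site AGTTCA. Of 32851 start sites in the table, 0.0883% held a DR5 match, 0.174% a DR2 match, 14% AGGTCA and 11.8% AGTTCA in the same window. None of the 4 motifs was found in the windows of Aldh1a1, Aldh1a2, Rbp4, Crabp1, Cyp26b1 or Stra6, which says only that these letters are not there. The Aldh1a2 window is rich in G and C (77.6%) with 40 CG dinucleotides, against 64.8% and 7 for Cyp26b1 and 58.0% and 16 for Rarb.

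Each library held 20026413 to 20638724 estimated counts in total and detected 15878 to 16252 genes. All 12 adipose progenitor markers were detected in each depot, with summed levels of 5524 to 5533 CPM (counts scaled to library size with TMM factors) in EWAT, 7666 to 8309 in SWAT and 9746 to 10351 in NWAT. These sums did not overlap. When edgeR tested all depots jointly, 10 of the 12 markers differed, against 41.7% of all genes tested. The part of these markers in the results that follow was not tested. The defining marker Pdgfra averaged 1050.2 CPM in EWAT, 1204 in SWAT and 1431 in NWAT. Summed macrophage markers reached 19.1 to 44.7 CPM and lymphoid markers 1.75 to 4.13 CPM. Markers of vessel-lining (endothelial) cells summed to 250 to 286 CPM in SWAT, 202 to 235 in EWAT and 350 to 369 in NWAT. Calls of single endothelial markers did not follow the high NWAT sum. In SWAT against NWAT 3 were higher and 1 lower (9.07% and 9.83% of all genes), with a median log2 fold change of 0.70. In EWAT against NWAT 1 was higher and 1 lower (13.3% and 14.0%), with a median of 0.23. In SWAT against EWAT 3 were higher and 0 lower (18.0% and 18.7%). Mural (vessel wall) markers summed to 49.7 to 71.0 CPM in SWAT, 61.4 to 63.0 in EWAT and 23.8 to 27.9 in NWAT. In the joint test 5 of 8 endothelial and 7 of 7 mural markers differed. The part of these cells in the results was not tested. In these bulk samples, fewer cells of a type and less RNA per cell cannot be told apart.

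Stem cells of EWAT had the most Aldh1a1 and Aldh1a2 transcript and the least of Cyp26b1, the enzyme that degrades retinoic acid, while those of SWAT had the most Cyp26b1 and the least Aldh1a3. Those of NWAT shared high Aldh1a3 with EWAT and had the most Rarb. Of the 9 genes, 7 had enough counts to be tested, and 6 of the 7 differed between depots when all 3 were tested jointly (edgeR quasi-likelihood test). The threshold used throughout is 0.05 on p-values adjusted by Benjamini-Hochberg. The joint test was passed by 41.7% of all 13694 genes tested. Crabp1 and Stra6 had too few counts, and Crabp2 was tested and did not pass.

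**Figure D1:**
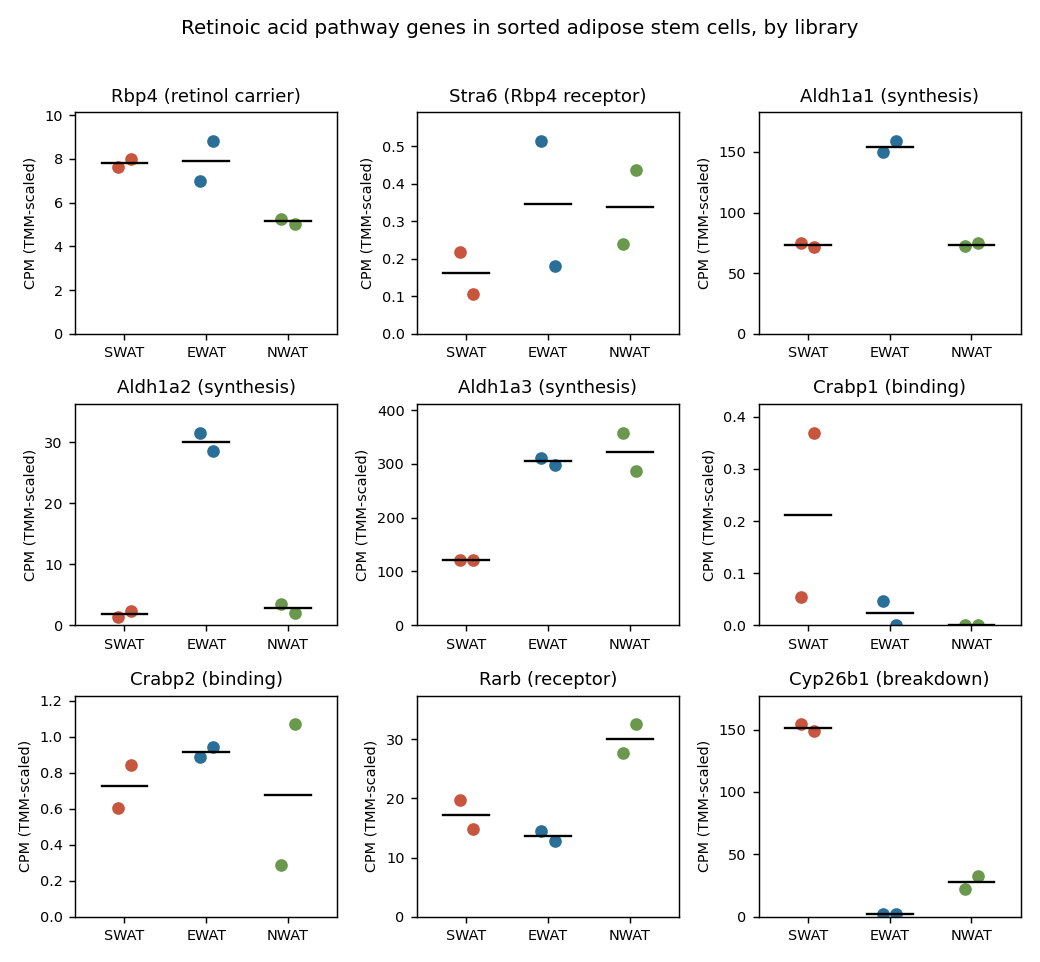
Level of each gene in CPM on a linear axis from 0, by depot. Points are single libraries, 2 per depot, and lines are their means. Aldh1a2 is high in EWAT (31.6 and 28.7 CPM), Cyp26b1 in SWAT (154 and 149 CPM) and Rarb in NWAT (27.6 and 32.5 CPM).

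Carriage and uptake of retinol were represented by low transcript levels. Rbp4 stood at 7.62 and 8.02 CPM in the SWAT libraries, 7.01 and 8.81 CPM in EWAT and 5.25 and 5.05 CPM in NWAT. Both NWAT libraries lay below the other 4, and those of SWAT and EWAT overlapped. Rbp4 was 1.52-fold higher in SWAT than in NWAT (log2 fold change 0.60 ± 0.17, SE; edgeR adjusted p = 0.0307) and 1.54-fold higher in EWAT than in NWAT (0.62 ± 0.17; edgeR adjusted p = 0.0195). Both calls, and the joint one, were lost without either NWAT library (log2 fold changes 0.63 and 0.58 over NWAT for SWAT, 0.65 and 0.59 for EWAT) and in DESeq2 (0.61 and 0.62). The joint call was also lost without SWAT replicate 2 (edgeR adjusted p = 0.0509). The call of SWAT over NWAT was also lost without either SWAT library (0.64 and 0.57) and on FPKM values (0.37), and that of EWAT over NWAT without EWAT replicate 2 (0.44). Between SWAT and EWAT the 95% interval of the log2 difference in Rbp4 ran from -0.38 to 0.35. Rbp4 is a product of mature fat cells, and of the 10 adipocyte markers the fat-cell hormone genes Adipoq and Lep stood below 1 CPM on average in each depot (Adipoq at 0.268, 0.430 and 0.867 CPM in SWAT, EWAT and NWAT). The summed adipocyte markers, nearly all of it the lipase Lpl and the fatty acid carrier Fabp4, ran from 1924 to 2752 CPM in SWAT, 1497 to 1701 in EWAT and 1516 to 1558 in NWAT, and their part in the Rbp4 result was not tested. Stra6 had 4 and 2 counts in SWAT, 11 and 4 in EWAT and 5 and 9 in NWAT. At this depth no difference of Stra6 was detectable: the ratio of EWAT to SWAT was 2.13, with an exact 95% counting interval from 0.781 to 6.70 that covers counting error only.

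The 3 retinaldehyde dehydrogenases each had a depot pattern of their own. Aldh1a1 stood at 74.7 and 71.5 CPM in SWAT, 150.0 and 158.7 CPM in EWAT and 72.6 and 74.7 CPM in NWAT. Both EWAT libraries lay far above the other 4, which overlapped. It was 2.11-fold higher in EWAT than in SWAT (log2 fold change of SWAT against EWAT -1.08 ± 0.10; edgeR adjusted p = 6.31e-06) and 2.10-fold higher than in NWAT (edgeR adjusted p = 1.13e-05). For SWAT against NWAT the 95% interval of the log2 difference ran from -0.23 to 0.21, so a difference of the size seen for EWAT lies outside it.

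Aldh1a3 was high in both visceral depots. Its levels were 121.1 and 121.4 CPM in SWAT, 311 and 299 CPM in EWAT and 358 and 288 CPM in NWAT. Both SWAT libraries lay below the other 4, and those of EWAT and NWAT overlapped. Aldh1a3 was 2.51-fold lower in SWAT than in EWAT (log2 fold change -1.33 ± 0.12; edgeR adjusted p = 7.51e-06) and 2.66-fold lower than in NWAT (-1.41 ± 0.12; edgeR adjusted p = 1.09e-05). Between EWAT and NWAT the 95% interval of the log2 difference ran from -0.35 to 0.18.

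Aldh1a2, the enzyme on which most retinoic acid synthesis of the early embryo depends, separated the depots most within this group. It had 24 and 43 counts in SWAT, 676 and 638 in EWAT and 74 and 43 in NWAT, or 1.32 and 2.27, 31.6 and 28.7, and 3.53 and 2.09 CPM. Only the EWAT libraries were high, and the ranges of SWAT and NWAT overlapped. Aldh1a2 was 16.7-fold higher in EWAT than in SWAT (log2 fold change of SWAT against EWAT -4.06 ± 0.25; edgeR adjusted p = 5.08e-07) and 10.7-fold higher than in NWAT (EWAT against NWAT 3.42 ± 0.23; edgeR adjusted p = 2.16e-06). The change against SWAT ranked 207 by size among the 13694 genes tested. Between SWAT and NWAT it was -0.64, with an interval from -1.31 to 0.027 (edgeR adjusted p = 0.177).

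Aldh1a2 is also a known transcript of mesothelium, the lining layer of visceral organs and fat pads, so the markers of that layer are given beside it. The 15 mesothelial markers summed to 60.2 to 73.5 CPM in SWAT, 289 to 310 in EWAT and 208 to 242 in NWAT, and Upk1b, Bnc1, Muc16, Wt1 and Gpm6a were at 0 counts in both SWAT libraries. Of the 12 tested, 9 were lower and 2 higher in SWAT than in EWAT (18.7% and 18.0% of all genes). In SWAT against NWAT 9 were lower and 0 higher (9.83% and 9.07%). In EWAT against NWAT 2 were higher and 1 lower (13.3% and 14.0%). The most abundant marker was the transcription factor gene Wt1, at 0, 156 and 121 CPM in SWAT, EWAT and NWAT, followed in EWAT by Rspo1 (3.95, 57.8 and 28.1 CPM) and Ezr (5.49, 35.8 and 23.6 CPM). The surface protein genes Msln (0.0264, 1.28 and 0.769 CPM) and Upk3b (0.108, 3.39 and 2.02 CPM) were low in each depot and also highest in EWAT. Summed macrophage markers were also highest in EWAT, at 43.7 to 44.7 CPM against 19.1 to 28.5 in SWAT and 25.2 to 27.2 in NWAT. The part of these cells in the Aldh1a2 result was not tested.

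Levels of different genes can be compared per length, on the FPKM scale (fragments per unit of gene length and library size). On that scale Aldh1a1 and Aldh1a3 made up nearly all dehydrogenase transcript in each depot. Aldh1a3 took 49.1% ± 0.591 (SD, n = 2) of the summed FPKM of the 3 genes in SWAT, 49.9% ± 1.28 in EWAT and 71.4% ± 3.29 in NWAT. Aldh1a1 took 49.8% ± 1.01, 42.6% ± 1.78 and 27.7% ± 3.53. Aldh1a2 took 1.09% ± 0.420 in SWAT, 7.45% ± 0.497 in EWAT and 0.926% ± 0.241 in NWAT. The largest relative difference between depots thus belonged to the gene with the smallest share. The summed FPKM was 65.2 and 66.2 in the SWAT libraries, 188.5 and 192.9 in EWAT and 148 and 126 in NWAT, without overlap between depots.

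**Figure D2:**
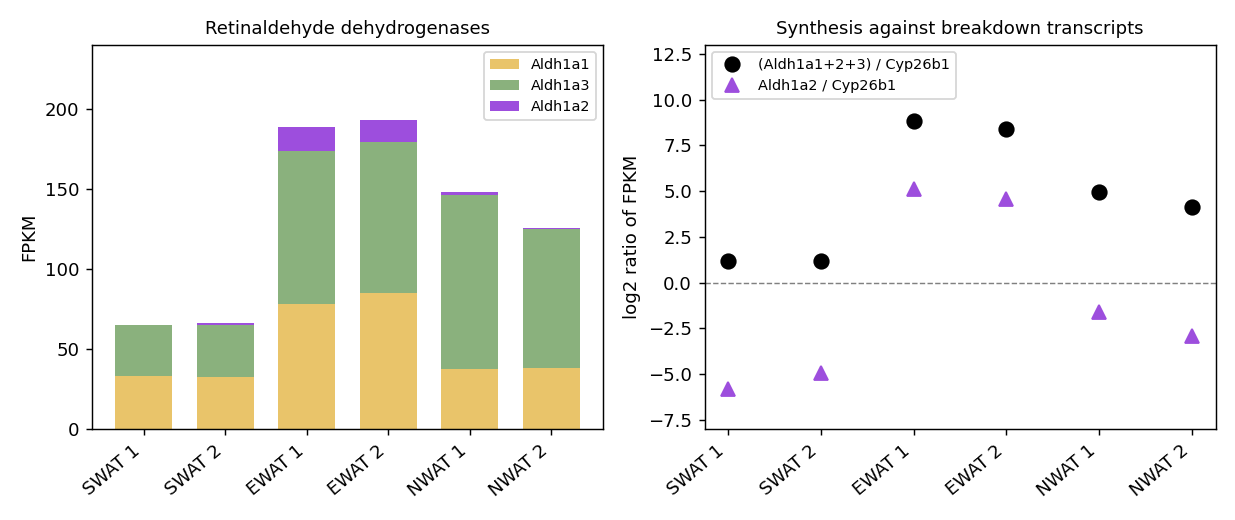
Left, FPKM of Aldh1a1, Aldh1a3 and Aldh1a2 stacked for each library, from 0. Right, log2 ratio of the summed dehydrogenase FPKM (circles) and of the Aldh1a2 FPKM (triangles) to the Cyp26b1 FPKM. The summed ratio lies at 1.18 and 1.21 in SWAT, 8.81 and 8.38 in EWAT and 4.92 and 4.16 in NWAT.

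The cellular binding proteins were barely transcribed. Crabp1 had 1 and 7 counts in SWAT, 1 and 0 in EWAT and 0 and 0 in NWAT, where a count of 0 allows up to 0.143 and 0.146 CPM at 3 counts per library. It was not tested, and with so few counts no fold is given. Crabp2, which hands retinoic acid to its nuclear receptors, had 11 and 16 counts in SWAT, 19 and 21 in EWAT and 6 and 22 in NWAT. The NWAT libraries spanned all others. The log2 difference of Crabp2 between SWAT and EWAT was -0.33 with a 95% interval from -1.50 to 0.83 (edgeR adjusted p = 0.654), which leaves room for a change of more than 2-fold.

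The receptor gene Rarb was highest in NWAT. Its levels were 19.7 and 14.8 CPM in SWAT, 14.4 and 12.8 CPM in EWAT and 27.6 and 32.5 CPM in NWAT. Both NWAT libraries lay above the other 4, and the SWAT libraries lay just above those of EWAT. Rarb was 2.21-fold higher in NWAT than in EWAT (log2 fold change of EWAT against NWAT -1.14 ± 0.15; edgeR adjusted p = 1.77e-04) and 1.74-fold higher than in SWAT (SWAT against NWAT -0.80 ± 0.15; edgeR adjusted p = 0.00271). Between SWAT and EWAT the log2 difference was 0.34 (0.0058 to 0.68) and did not pass (edgeR adjusted p = 0.102), except without SWAT replicate 2 (0.54; edgeR adjusted p = 0.0422). Rarb overlaps Top2b on the other strand, so that without a known strand setting reads of the pair cannot be told apart where they overlap. Stra6, Aldh1a1 and Aldh1a2 also overlap annotated genes on the other strand, and the same limit applies to them.

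Cyp26b1, which oxidises retinoic acid to inactive products, showed the largest fold change among the 7 tested genes. It stood at 154 and 149 CPM in SWAT, 1.91 and 2.56 CPM in EWAT and 22.5 and 32.8 CPM in NWAT. No depot overlapped another. Cyp26b1 was 67.4-fold higher in SWAT than in EWAT (log2 fold change 6.08 ± 0.21; edgeR adjusted p = 1.20e-08), 5.48-fold higher in SWAT than in NWAT (2.45 ± 0.16; edgeR adjusted p = 2.96e-06) and 12.3-fold lower in EWAT than in NWAT (-3.62 ± 0.21; edgeR adjusted p = 9.95e-07). The difference between SWAT and EWAT ranked 64 by size among the 13694 genes tested. The EWAT level rests on 41 and 57 counts, and the exact 95% counting interval of the ratio of SWAT to EWAT was 55.3 to 83.3. Like the counting intervals given below, it covers counting error only, not the spread between libraries. The 95% interval of the log2 difference from the edgeR fit ran from 5.60 to 6.55. The other members of its family were near 0, with Cyp26a1 at 1 and 3 counts in SWAT, 0 and 0 in EWAT and 0 and 3 in NWAT, and Cyp26c1 at no more than 2 counts in any library. Markers of Schwann cells moved with Cyp26b1 and summed to 33.4 to 39.1 CPM in SWAT, 8.87 to 10.6 in EWAT and 18.4 to 22.9 in NWAT, of 5 genes. The defining Schwann cell factor Sox10 was at 0.108, 0.0234 and 0 CPM, and the part of these cells in the result was not tested.

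On the FPKM scale the order of Cyp26b1 and Aldh1a2 reversed between SWAT and EWAT. Cyp26b1 stood at 28.9 and 28.7 FPKM in SWAT, where Aldh1a2 was at 0.520 and 0.920. In EWAT Cyp26b1 was at 0.420 and 0.580 FPKM and Aldh1a2 at 14.7 and 13.7. The log2 ratio of Aldh1a2 to Cyp26b1 was -5.79 and -4.96 in SWAT, 5.13 and 4.56 in EWAT and -1.59 and -2.89 in NWAT. The ratio of the summed dehydrogenases to Cyp26b1 was above 0 on the log2 scale in all 6 libraries, in the order EWAT, NWAT, SWAT, without overlap. These ratios compare transcripts and carry no test.

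Pair by pair, 4 of the 7 tested genes differed between SWAT and EWAT, where 36.7% of all genes did. Cyp26b1 was higher in SWAT (as were 18.0% of all genes) and Aldh1a1, Aldh1a2 and Aldh1a3 were lower (18.7%). Between SWAT and NWAT 4 of 7 differed, against 18.9% of all genes, with Cyp26b1 and Rbp4 higher in SWAT (9.07%) and Aldh1a3 and Rarb lower (9.83%). Between EWAT and NWAT 5 of 7 differed, against 27.3%, with Aldh1a1, Aldh1a2 and Rbp4 higher in EWAT (13.3%) and Cyp26b1 and Rarb lower (14.0%). The CPM ranges of the depots did not overlap for 6, 4 and 5 of the 7 genes in these pairs, where 70.0%, 63.1% and 65.5% of all genes did not. The median log2 fold change of the 7 genes was -0.33, -0.010 and 0.44, beside -0.0090, -0.015 and 0.011 over all genes tested. These comparisons share their libraries by pairs and are not independent of each other. The 9 genes were chosen with earlier results of these data known. Their counts beside the all-gene shares, in the pairs and in the joint test, are therefore a description only.

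**Figure D3:**
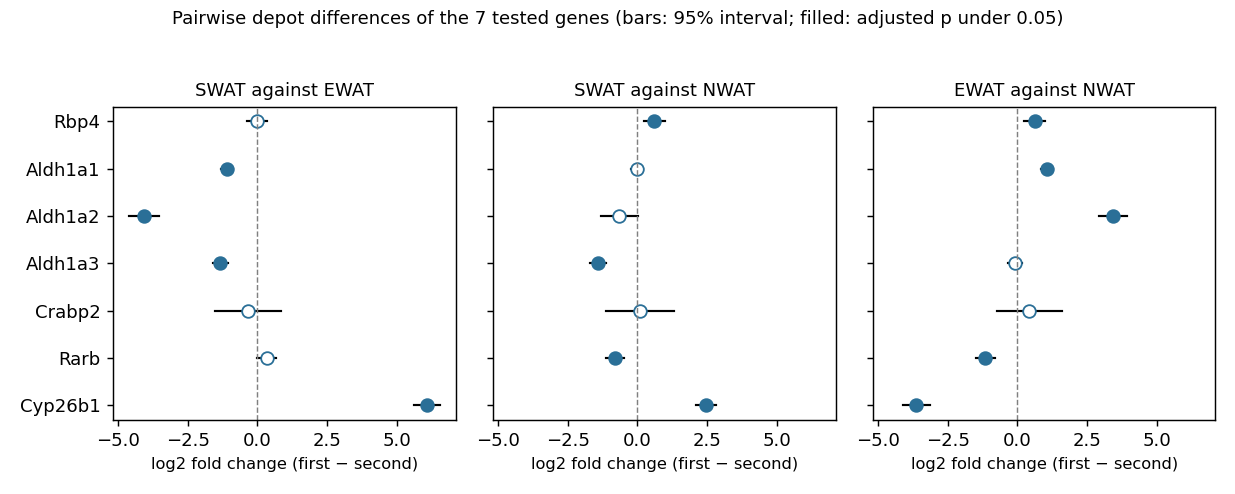
Log2 fold change of the 7 tested genes in each pair of depots, first minus second. Bars are 95% intervals from the edgeR fit and filled points passed the threshold. Cyp26b1 (6.08) and Aldh1a2 (-4.06) lie farthest from 0 for SWAT against EWAT, on opposite sides.

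The other genes of the pathway came from lists of 70 genes, of which 67 were in the table and 54 were tested. All these lists were chosen with earlier results of these data known, so their counts beside the all-gene shares only describe them. Among genes for uptake, carriage and storage of retinol and carotenoids, 9 of 15 were tested. In SWAT against EWAT 3 were higher and 3 lower (median log2 fold change 0.093, against -0.0090 over all genes), in SWAT against NWAT 2 and 2 (0.36, against -0.015), and in EWAT against NWAT 3 and 2 (-0.023, against 0.011), with the first and last medians changing sign on log2 (FPKM + 1) values (-0.088 and 0.040) and without EWAT replicate 1 (-0.055 and 0.014). The last also turned without NWAT replicate 1 (0.19) or 2 (0.22). Leaving out SWAT replicate 2 reduced the higher calls to 1 against EWAT and 1 against NWAT, and the latter also fell to 1 when either NWAT library was left out. On log2 (FPKM + 1) values there was 1 higher call in each of these pairs. All-gene shares for these pairs are 36.7%, 18.9% and 27.3% called. Bco2, a carotenoid-cleaving enzyme, was lowest in EWAT, at 7.15, 1.14 and 5.19 CPM in SWAT, EWAT and NWAT (SWAT against EWAT 2.63 ± 0.26; edgeR adjusted p = 1.18e-05). The retinol-esterifying enzyme Lrat had at most 5.81 counts in a library. Lpl, a lipase that can also release retinol from esters, was 0.63 ± 0.16 higher in SWAT than in EWAT, a call lost when SWAT replicate 2 was left out (0.36) and on FPKM values (0.37).

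Of 20 genes for enzymes that convert retinol and retinaldehyde into each other, 16 were tested, and 2 were higher and 5 lower in SWAT than in EWAT, 3 and 3 in SWAT against NWAT and 2 and 3 in EWAT against NWAT. The 7 calls of 16 in the first pair are near the all-gene share of 36.7%, beside 18.9% and 27.3% for the other pairs. The medians were -0.016, 0.088 and 0.024, against -0.0090, -0.015 and 0.011 over all genes. The second median turned to -0.21 on log2 (FPKM + 1) values, -0.16 with no count filter, -0.027 with a count minimum of 50 and -0.046 without SWAT replicate 2, and the last to -0.088 with no count filter and -0.053 without EWAT replicate 1. The 3 lower calls of SWAT against NWAT became 1 in DESeq2 and without any 1 of the SWAT or NWAT libraries. The 2 higher calls of EWAT against NWAT became 1 in DESeq2 and without any 1 library other than EWAT replicate 1. Rdh10, the main embryonic retinol dehydrogenase, stood at 14.97 and 12.4 CPM in SWAT, 37.5 and 41.2 in EWAT and 33.6 and 32.9 in NWAT, and was lower in SWAT than in EWAT (-1.53 ± 0.12; edgeR adjusted p = 1.96e-06) and NWAT (-1.28 ± 0.12; edgeR adjusted p = 1.87e-05). Adh1, an alcohol dehydrogenase that acts on retinol, was highest in EWAT, at 114, 201 and 82.6 CPM in SWAT, EWAT and NWAT. Adh7, another alcohol dehydrogenase active on retinol, went the other way, with 25.4 and 24.6 CPM in SWAT, 0.374 and 0.315 in EWAT and 2.24 and 2.57 in NWAT. The SWAT libraries lay far above the rest, and the ratio of SWAT to EWAT was 72.8 (exact 95% counting interval 43.9 to 131; edgeR adjusted p = 2.24e-09). Dhrs9, a short-chain dehydrogenase, had 320 counts over the SWAT libraries, 3 over those of EWAT and 137 over those of NWAT. Its ratio of SWAT to EWAT was 125 (counting interval 42.5 to 610, edgeR adjusted p = 1.24e-07). Dhrs3, which returns retinaldehyde to retinol, did not pass in the joint test, at 80.5, 61.5 and 65.6 CPM.

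Of the 13 nuclear receptors, coregulators and alternative carriers, all tested, 7 were higher and 2 lower in SWAT than in EWAT (median 0.44), 4 and 0 in SWAT against NWAT (0.25) and 1 and 5 in EWAT against NWAT (-0.0080, or 0.037 on log2 (FPKM + 1) values). At an unadjusted edgeR p under 0.05, 6 were higher and 1 lower in SWAT than in NWAT. DESeq2 gave 4 and 0 for that pair, limma on log2 (FPKM + 1) values 2 and 1, edgeR without either EWAT library 7 and 1, and edgeR without NWAT replicate 2 gave 2 and 0. For EWAT against NWAT the 5 lower calls became 2 without NWAT replicate 1, where the median was 0.019, and 3 without NWAT replicate 2, and the 1 higher call became 2 without EWAT replicate 1. The 2 lower calls of SWAT against EWAT became 1 without any 1 library other than EWAT replicate 2. Of all genes, 18.0% were higher and 18.7% lower in the first pair, 9.07% and 9.83% in the second and 13.3% and 14.0% in the last. Per length, Rarg was the most abundant of the 3 retinoic acid receptor genes, at 57.9, 32.8 and 57.7 FPKM in SWAT, EWAT and NWAT against 11.6, 12.1 and 9.22 for Rara and 5.21, 4.94 and 10.3 for Rarb. On the CPM scale Rarg stood at 207 and 149 CPM in SWAT, 88.4 and 83.3 in EWAT and 153 and 158 in NWAT. EWAT lay below both others (SWAT against EWAT 1.05 ± 0.14; edgeR adjusted p = 1.75e-04). Rxrg, a partner receptor, had 188 counts over the SWAT libraries, 6 over those of EWAT and 14 over those of NWAT. Its ratio of SWAT to EWAT was 36.8 (counting interval 16.6 to 102, edgeR adjusted p = 3.90e-06). Fabp5, which carries retinoic acid to another nuclear receptor, was highest in EWAT, with 8.83 and 16.0 CPM against 2.63 and 2.90 in SWAT and 3.53 and 3.79 in NWAT.

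Genes known to be induced by retinoic acid in other cells formed a list of 20, chosen with earlier results of these data known. Of the list 16 were tested and all 16 differed in the joint test, against 41.7% of all genes. Because of that choice, the counts of this list beside the all-gene shares are a description only. In SWAT against EWAT 11 were lower and 3 higher (18.7% and 18.0% of all genes), with a median of -0.63 against -0.0090. In SWAT against NWAT 5 were lower and 4 higher (9.83% and 9.07%), with a median of -0.40 against -0.015. In EWAT against NWAT 12 were higher and 2 lower (13.3% and 14.0%), with a median of 0.81 against 0.011. Many of these genes also have other regulators, and 7 of the 20 listed are Hox genes, which pattern the body axis. The member Rarb, introduced above as a target, is not in this list. Rarb was lower in EWAT than in NWAT (log2 fold change -1.14), unlike most of the list. Tgm2, a transglutaminase, stood at 27.6 and 32.5 CPM in SWAT, 127 and 124 in EWAT and 34.3 and 42.2 in NWAT, with EWAT far above the others (SWAT against EWAT -2.06 ± 0.13; edgeR adjusted p = 1.99e-07). Hoxa5 was at 8.23, 34.1 and 16.3 CPM, Hoxb5 at 1.07, 6.46 and 0.888 CPM, and the nuclear receptor Nr2f1 at 8.66, 25.9 and 12.7 CPM in SWAT, EWAT and NWAT. Rarres2, which codes for the adipokine chemerin, was highest in SWAT, at 404, 273 and 278 CPM. Its calls were lost on FPKM values (0.35 against EWAT and 0.36 against NWAT), and that against NWAT also without either SWAT library (0.55 and 0.53) and in the fit lacking NWAT replicate 1 (0.45). Tested by limma on log2 (FPKM + 1), 12 of the list were lower in SWAT than in EWAT and 11 higher in EWAT than in NWAT, and the calls in the other direction were lost in both pairs. The same fit gave 8 lower and 3 higher in SWAT than in NWAT. Without SWAT replicate 1 edgeR gave 3 lower for that pair, and 1 higher for SWAT against EWAT, as it did without EWAT replicate 2. The 2 lower calls of EWAT against NWAT became 1 with a count minimum of 50 and without any 1 library other than EWAT replicate 1.

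**Figure D4:**
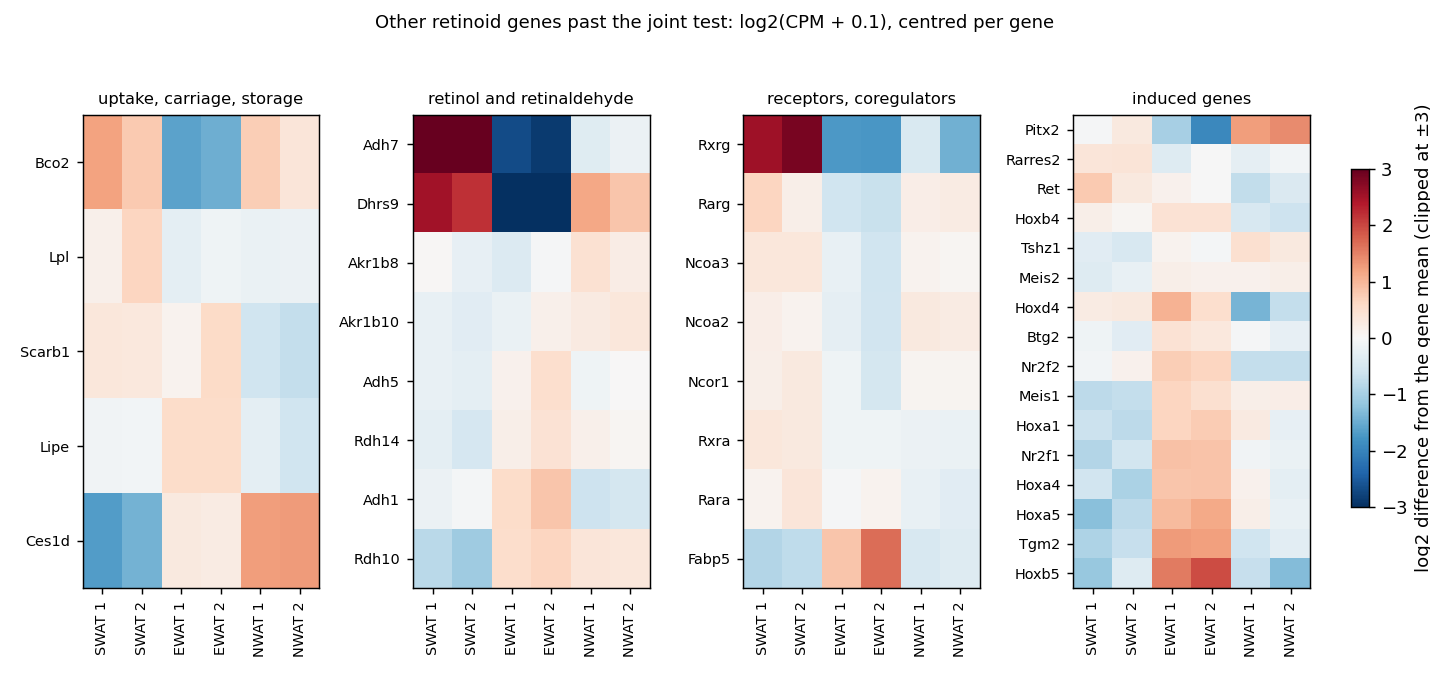
Genes of the 4 other lists that passed the joint test, apart from 2 not reported here, 1 row per gene and 1 column per library. Colour is log2 (CPM + 0.1) minus the gene's mean over the 6 libraries, clipped at 3 either way. Adh7, Dhrs9 and Rxrg are high in SWAT, and Rdh10, Tgm2 and Hoxb5 are high in EWAT.

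For each member that passed the joint test, the 3 genes with the most similar profile were found over 6 libraries among 10262 candidates whose log2 CPM averaged 2 or more, by the root-mean-square difference of log2 CPM centred on each gene's mean. The profile of Cyp26b1 was most like that of the interleukin-1 decoy receptor gene Il1r2 (0.27), with 247, 2.64 and 33.3 CPM in SWAT, EWAT and NWAT, followed by the integrin gene Itgb7 (0.46) and the lipid droplet gene Plin4 (0.46). Aldh1a2 was most like the potassium channel gene Kcnk2 (0.24), at 1.69, 28.4 and 3.79 CPM, then Egflam (0.32) and Ccbe1 (0.33). Aldh1a1 was nearest to Ror1 (0.065), Fgfr2 (0.065) and B3gnt8 (0.082), and Aldh1a3 to the elastic fibre gene Fbln5 (0.088), Nol4l (0.10) and Syt11 (0.12). Rarb was nearest to Gfpt2 (0.056), Mfap3l (0.078) and Lgi2 (0.079), and Rbp4 to Miip (0.040), Crtap (0.058) and Rflnb (0.062). Small changes are matched by many genes, so these distances describe the 6 libraries only.

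On GRCm38.p6 the 9 protein-coding genes lie on 6 chromosomes, with Crabp1 (54764748 to 54773110), Stra6 (58063793 to 58154004) and Aldh1a2 (71215789 to 71296243) on chromosome 9 and Aldh1a1 (20492583 to 20643463) and Rbp4 (38116620 to 38125321) on chromosome 19. Crabp2 is on chromosome 3 (87948693 to 87953372), Cyp26b1 on chromosome 6 (84571414 to 84593908), Aldh1a3 on chromosome 7 (66390892 to 66427477) and Rarb on chromosome 14 (16430839 to 17082331).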

How the data were processed

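Isolated adipose-derived stem cells from 4 depots, 8 samples in all, were sequenced as bulk RNA. For each gene symbol the authors deposited estimated counts (from 31.7% to 33.1% of values not whole, so not plain read counts, and not normalized). The authors also deposited FPKM, which divides by gene length and library size, in a separate table. Per the submitters' processing notes, the build was GRCm38.p6 and the tools include Seurat and Cell Ranger, with neither roles nor versions. No aligner, annotation or strand setting is given in the sources used here. There were 2 columns per table whose letter matches no label; these were not used, so 6 libraries remain. A duplicated symbol was read from its entry with the higher total.

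Counts were rounded, filtered with filterByExpr by depot (count minimum 10, total minimum 15), scaled by TMM (factors 0.893 to 1.08) and fitted in edgeR 4.0.16 on R 4.3.3 with 1 coefficient per depot and robust quasi-likelihood, leaving 13694 genes and 3 residual degrees of freedom. P-values were Benjamini-Hochberg adjusted over all genes. Each SE is the log2 fold change, taken without sign, over the root of its F statistic. CPM are TMM-scaled with the SD over 2 libraries. The code was tested on simulated counts. Alternatives used DESeq2 1.42.0 and limma 3.58.1 on log2 (FPKM + 1). Genes named outside the 9 were list members past the joint test, cell type markers or, for each member past the joint test, the 3 nearest profiles. Dhrs3, Lrat, Cyp26a1, Cyp26c1, Top2b, Tnfsf13b and Blvrb fall outside this rule and were chosen after their values were seen. Leave-one-out shares and the alternatives for the other retinoid lists were added after seeing the data. The members and lists were chosen with earlier results of these data known. For 2 genes of these lists single values are left out of the text, though the list counts include them.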

Additional observations from a re-analysis of the deposited data

How the results depend on the processing

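Of the 19 calls of single members, 16 held under all 14 alternatives, 6 of which left out 1 library, and the 3 that did not were those of Rbp4. A depot left with 1 library was assumed to vary like the others. The number of members called stayed within 1.5 times its value under each alternative, and without 1 library it was 5 to 6 in the joint test, 4 to 5 between SWAT and EWAT, 3 to 4 between SWAT and NWAT and 4 to 5 between EWAT and NWAT. Signs turned only where no call was made. Over the fits that left out 1 library, Rbp4 (SWAT minus EWAT) ran from -0.17 to 0.17 and was 0.019 without SWAT replicate 1 and 0.17 without EWAT replicate 2. Aldh1a1 (SWAT minus NWAT) ran from -0.040 to 0.023, with 0.013 when NWAT replicate 2 was left out. Crabp2 ran from -0.55 to 1.32 (SWAT minus NWAT; -0.16 when SWAT replicate 2 was left out) and from -0.22 to 1.66 (EWAT minus NWAT). Aldh1a3 (EWAT minus NWAT) ran from -0.23 to 0.084. On log2 (FPKM + 1) and log2 (FPKM + 0.1) values Rbp4 (SWAT minus EWAT) was -0.20 and -0.22, and Aldh1a1 (SWAT minus NWAT) was -0.20 in both, with no call.

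Of 89 calls of other retinoid genes, 56 held under all 14 alternatives, which were run on them after seeing the data. On log2 (FPKM + 1) values, which carry no TMM scaling, the all-gene median moved to -0.20 (SWAT minus EWAT), -0.16 (SWAT minus NWAT) and 0.054 (EWAT minus NWAT), and no called member changed direction. Of the calls over all genes 19.4% were then higher in SWAT than in EWAT, against 49.1% from the counts, and 19.4% against 48.0% for SWAT over NWAT. Shares from counts in place of FPKM, not per length, were 37.3%, 31.6% and 18.6% for Aldh1a1 in SWAT, EWAT and NWAT, 61.8%, 62.3% and 80.7% for Aldh1a3, and 6.16% for Aldh1a2 in EWAT. With the replicate number as a block the members called were 6 in the joint test and 4, 4 and 5 in the pairs, as without it. The replicate differences of the depots correlated at 0.00055 (SWAT and EWAT), 0.038 (SWAT and NWAT) and 0.11 (EWAT and NWAT) over genes. Such values cannot tell whether the replicate numbers pair the libraries, because a shared mouse or batch could have a small effect. Depth limits Crabp1, Stra6 and Crabp2, whose counts were 22 or fewer in each library.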

Other observations

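The DR5 repeat found upstream of Rarb was present upstream of 28 genes in the promoter table, of which 3 had enough counts to be tested, namely Rarb, Tnfsf13b and Blvrb. Tnfsf13b, which codes for a survival factor of B cells, passed when all depots were tested jointly (edgeR adjusted p = 0.00401) and was lower in SWAT than in EWAT (log2 fold change -0.58) and NWAT (-0.50). Blvrb, a biliverdin reductase gene, did not pass the joint test (edgeR adjusted p = 0.0794) and was higher in SWAT than in EWAT by 0.39 (edgeR adjusted p = 0.0382).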
